A study of Homo sapiens with 6 samples.

Results

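The RNA of long terminal repeats (LTRs), the promoter sequences that flank endogenous retroviruses, was examined for 172 repeat names of 1047 sequences quantified in human embryonic stem cells. The members were all names that begin with LTR and a number, except those of HERVH (LTR7A, LTR7B, LTR7C, LTR7Y), HERVK (LTR5 and the LTR3, LTR13, LTR14 and LTR22 groups), HERV9 (LTR12) and the LTR16 and LTR33 groups. They belong to 81 numbered families, such as LTR10 with its 9 names. By their names 2 members, LTR25-int and LTR43_I, are internal sequences and not LTRs, and both are counted with the LTR names below. A read was assigned to 147 of the 172 names in at least 1 library, and 136 had at least 10 estimated counts in at least 1 library and were tested for change. Of the other 36, 25 were listed at 0 in all 6 libraries and 11 had fewer counts than that minimum.

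All cells were of the H1 line, at passages 40 to 60, and held a hairpin directed at EXOSC3, a component of the RNA exosome that trims RNA from its 3′ end. Doxycycline (dox) switches the hairpin on. A second construct was either the vector alone (PB) or EXOSC3r, a form of EXOSC3 that escapes the hairpin. PB cells gave 1 library without and 1 with dox, and each of 2 EXOSC3r clones gave the same pair, so the 4 groups hold 1, 1, 2 and 2 libraries. There was 1 PB line, no library from cells that lack the hairpin, and no independent sample of PB cells within an arm. EXOSC3, and markers of the cell type, were not analysed here, so neither the depletion nor the cell state was checked.

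An LTR contains the promoter, enhancer and polyadenylation signals of a provirus. Recombination between the 2 LTRs of a provirus removes its interior and leaves a solo LTR, and solo LTRs far outnumber complete proviruses in the human genome. Class I endogenous retroviruses (ERV1) resemble gammaretroviruses and include HERV-W, HERV-E and HERV-I, whereas class III elements (ERVL) resemble spumaviruses and are mostly older. LTRs of this kind have been adopted as promoters of human genes: LTR17 drives syncytin-1, the fusion protein of the placenta, and an LTR10A drives a placental transcript of NOS3. A consensus name in these tables stands for many genomic copies. A read of a repeat that lies inside a longer transcript counts for the repeat as well, so the values below are levels of LTR-containing RNA and not promoter activity.

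Of all assigned counts, 1.104% fell on the LTR names in the PB library without dox, with an exact 95% binomial (Clopper-Pearson) interval of 1.094 to 1.114. The PB library with dox gave 1.21% (1.2 to 1.22). In EXOSC3r clone 1 their share was 0.901% without (0.892 to 0.909) and 0.798% with dox (0.791 to 0.806). In clone 2 it was 1.001% (0.991 to 1.011) and 1.099% (1.088 to 1.109). The intervals cover counting error only. Totals of assigned counts were between 3745262 and 5260196 per library, of which 39454 to 55250 fell on the LTR names. These are bulk RNA values, so fewer cells that express a repeat and less RNA per cell cannot be told apart. The share was highest in PB cells with dox and lowest in clone 1 with dox. These libraries had the lowest and the highest share of Alu (32.99% and 52.5%), which here means the single sequence named ALU. Outside Alu, ACTB and GAPDH the LTR names took between 2.23% and 2.55%, and there clone 1 with dox was the highest and PB with dox the lowest.

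Levels are given as per-million-scaled counts (CPM) after TMM scaling, which sets the libraries so that most sequences do not change. The 10 most counted names of each library held between 49.99% and 53.9% of its LTR counts. Of the 172 names, 22 had a mean of at least 100 CPM, 76 lay between 10 and 100 CPM, and 49 with reads lay under 10 CPM. Class I names supplied between 93.6% and 93.97% of the LTR counts in every library and class III names between 5.65% and 6.03%. The classes were assigned from general knowledge of repeat classification, as the tables give none: 112 names are class I, 38 class III and 22 were not placed. Of class I, 108 names were tested and 2 were listed at 0, against 22 and 11 of the 38 class III names.

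Few names of the highest-numbered families were detected, a split singled out after the values were seen. Of 30 names numbered LTR78 to LTR91, 23 were listed at 0 in all libraries and 2 were tested, and the highest mean among them was 2.84 CPM (LTR80B). Of the 141 names with lower numbers, 2 were listed at 0 (LTR40A1 and LTR75B) and 133 were tested. LTR2752 stands outside this count. A count of 0 allows a level of up to 0.542 to 0.767 CPM, depending on the library, since 3 counts correspond to that level. Related names compete for the same reads in the estimation, so a name at 0 is not shown to be silent.

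LTR17, the LTR of HERV-W, had the highest level of all members, at 1229 CPM in PB, 1189 in PB with dox, 1515 and 1738 in clone 1 without and with dox, and 1328 and 1367 in clone 2. LTR8, the LTR of HUERS-P1, followed with 764 and 875 CPM in PB cells, 822 and 853 in clone 1, and 741 and 781 in clone 2. LTR10C, of the HERV-I group, lay between 631 CPM (clone 1 with dox) and 712 CPM (PB with dox). The ranges of LTR17 and LTR8 over the libraries did not overlap, nor did those of LTR8 and LTR10C. LTR2C, an LTR of HERV-E, had between 395 and 587 CPM and LTR2B between 359 and 386, so the ranges of these neighbours did not overlap. LTR1A2 (324 to 389 CPM), LTR70 (302 to 403), LTR9B (281 to 329) and LTR6B (269 to 298) came next and overlapped in part.

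**Figure D1:**
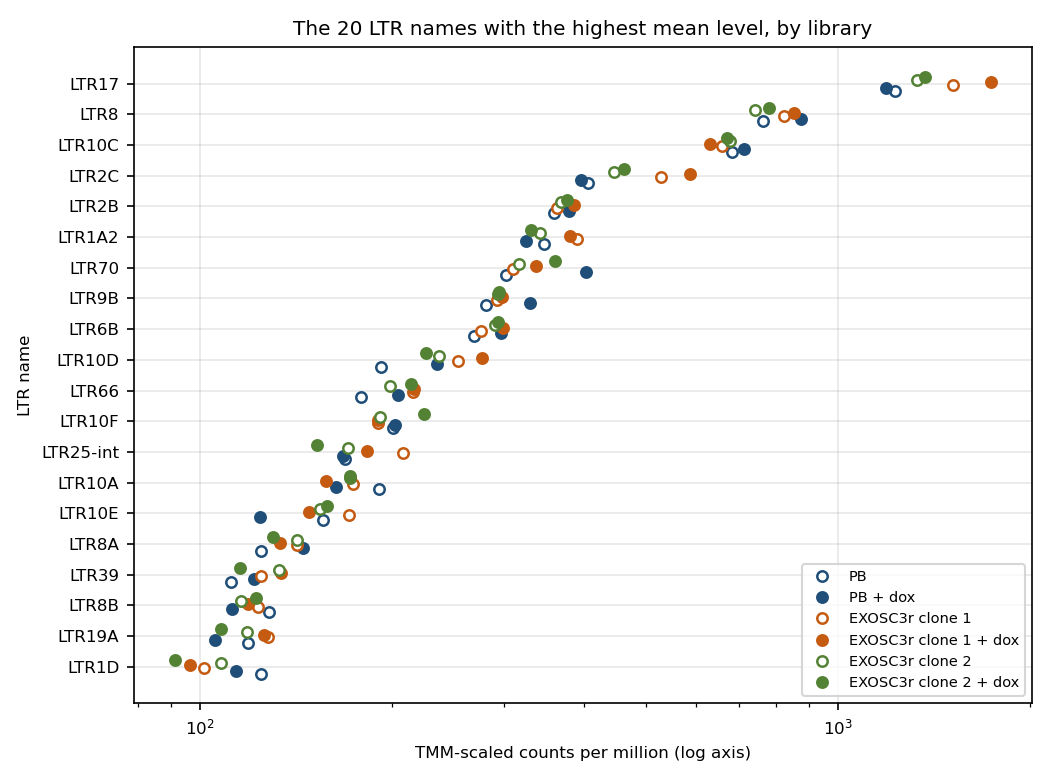
TMM-scaled CPM on a log axis for the 20 LTR names with the highest mean, 1 point per library; open points are without and filled points with dox, and colours give the line. LTR17 lies highest in all 6 libraries, at 1189 to 1738 CPM, and the names span less than 1.5-fold over the libraries.

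Levels compared between names need a correction for length, since the consensus lengths ran from 199 to 7188 bases with a median of 612. Per kilobase of effective length, LTR17 was still first (mean 2246 CPM per kilobase), followed by LTR10C (1572), LTR2C (1545), LTR8 (1515) and LTR2B (1119). LTR70, with a consensus of 1286 bases, moved from rank 7 to rank 16 (300 CPM per kilobase). LTR25-int, which by its name is an internal sequence of 7188 bases and not an LTR, moved from rank 13 to rank 96 (24.9). By the deposited TPM, the same 5 names led, with means of 616, 450, 423, 429 and 317 TPM in the order just given.

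Summed by family, the 9 LTR10 names had the highest level, between 1573 and 1650 CPM per library, or 15.9% of the LTR total on average. LTR17 (1 name) held 13.8%, LTR8 (3 names) 10.5%, LTR2 (3 names) 8.54% and LTR1 (15 names) 8.42%. These 5 families of 81 thus held most of the LTR counts. Within LTR10 the levels differed widely: LTR10C had a mean of 672 CPM, LTR10D 237, LTR10F 200.1, LTR10A 172, LTR10E 152 and LTR10B1 80.4, whereas LTR10B2 had 3.85. The LTR45 names were low, with means of 33.3 (LTR45C), 17.4 (LTR45B) and 16.4 CPM (LTR45). The summed LTR10 level varied less over the libraries than LTR10C or LTR10D did alone.

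The LTR families were set beside the internal sequences of their proviruses, per kilobase of effective length. For 18 of 21 pairs of an LTR family and an internal sequence the LTR level was above the internal level in all libraries by more than 8-fold. This holds for solo LTRs and LTRs of full proviruses together. The LTR10 names summed to 79.7 times HERVIP10F (median over libraries, range 75.9 to 82.02) and 27.4 times HERVIP10FH (23.6 to 29.2), the LTR2 names to 33.95 times HERVE (30.8 to 42.3), and LTR17 to 9.61 times HERV17 (8.74 to 15.1). LTR30 and HERV30I were near equal, with a ratio of 1.29 (1.23 to 1.51). In 2 pairs the internal sequence was higher: the ratio was 0.686 for LTR21 and HERVFH21I (0.58 to 0.758) and 0.116 for LTR39 and HERV39 (0.106 to 0.124). HERV39 lay between 14020 and 15931 CPM, and LTR39 between 112 and 134 CPM. Sums over several names are divided by the mean effective length of these names, so that a family with many names has a higher sum. The pairs were set from general knowledge, as the tables do not link LTRs to internal sequences.

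**Figure D2:**
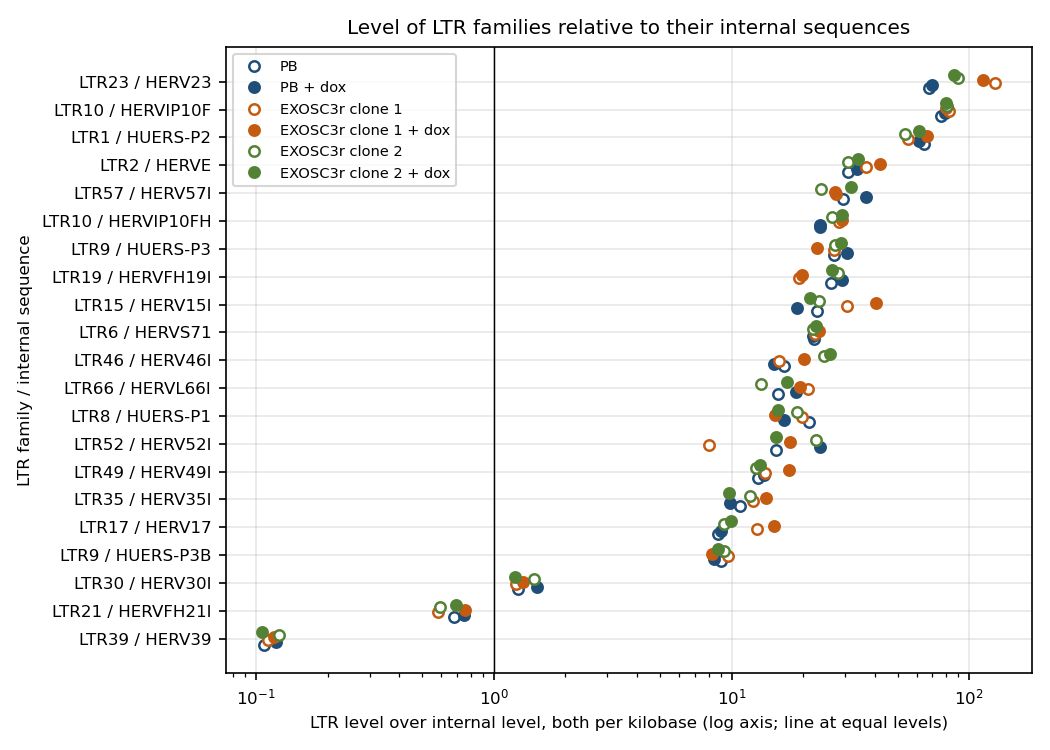
Ratio of the summed LTR level to the level of the internal sequence, both per kilobase, on a log axis, 1 point per library for each of 21 pairs; the vertical line marks equal levels. LTR39 (ratio 0.106 to 0.124) and LTR21 (0.58 to 0.758) lie left of the line and the other pairs right of it.

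On the TMM scale, the spread over the 6 libraries was somewhat wider for LTR names than for other sequences above the same minimum level. For the 41 names with a mean of at least 50 CPM, the coefficient of variation over libraries had a median of 8.25% (lowest 2.77%, highest 20.5%). The 291 other tested sequences above that minimum had a median of 6.65% (1.65% to 54.6%). No upper limit was set and the 2 sets were not matched by level, so the medians do not compare sequences of like level. In the deposited TPM the libraries lay further apart, for example between 251 and 650 TPM for LTR10C and between 272 and 643 TPM for LTR8. LTR2B was the steadiest of the 41, between 359 and 386 CPM, and LTR15 the least steady, between 80.5 and 145 CPM. Below that level LTR77 stood out, with 59.7 and 62.5 CPM in PB cells against 23.1 to 38.9 CPM in the clones.

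The first comparison asked how LTR RNA responds when the hairpin is induced in cells without the rescue transgene. In PB cells none of the 136 tested names passed the edgeR quasi-likelihood test at an adjusted p of 0.05, where 0.858% of all 699 tested sequences did. At an unadjusted p under 0.05 there were 4 names (2.94%), against 4.01% of all sequences. Of these, 2 were higher with dox (2.86% of all sequences) and 2 lower (1.14% of all). DESeq2 also called 0, with 2 names at an unadjusted p under 0.05. The median log2 change of the names was 0.04, that of all sequences 0.0037, and 76 names were above 0 (55.9%, against 51.1% of all) and 60 below. The PB value has no replicate of its own, and its error is taken from the spread between the 2 clones.

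LTR70 had the smallest p among the names, with 302 CPM without and 403 CPM with dox in PB cells. Its change was 0.42 ± 0.10 on the log2 scale (± is the SE, and the edgeR adjusted p = 0.44). LTR70 was also higher with dox in the other lines, at 309 and 336 CPM in clone 1 and 316 and 361 CPM in clone 2 (log2 0.16 ± 0.07, adjusted p = 1.00). All 3 libraries with dox thus lay above all 3 without on the TMM scale, whereas in CPM of the plain total clone 1 had 270.3 without and 250.2 with dox. LTR1B0 stood at 25.95 CPM without and 13.5 CPM with dox in PB cells (log2 -0.94 ± 0.28, adjusted p = 0.91). In clone 1 it stood at 30.2 and 19.7 CPM and in clone 2 at 27 and 24.1 CPM, so each line had less with dox. LTR10E went from 156 to 124 CPM in PB cells (log2 -0.33 ± 0.13) and LTR9B from 281 to 329 CPM (0.23 ± 0.09), and both had an adjusted p of 1.00. In clone 1 LTR10E went from 171 to 149 CPM, while in clone 2 it was at 155 and 158 CPM.

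The 5 names of LTR9, the LTR of HUERS-P3, all had estimates above 0 in PB cells, between 0.12 (LTR9D) and 0.43 (LTR9A1) on the log2 scale. LTR9A1 went from 57.6 to 77.5 CPM and LTR9C from 29.1 to 38.3 CPM. Summed, the LTR9 names went from 510 to 605 CPM in PB cells, from 538 to 518 in clone 1 and from 533.3 to 533.2 in clone 2. In the fit on family sums this was a log2 change of 0.25 ± 0.09 in PB cells (edgeR adjusted p = 0.95) and -0.03 ± 0.06 in EXOSC3r cells. The difference of 0.28 ± 0.11 between these responses did not pass (adjusted p = 1.00). LTR8, in turn, has the internal sequence HUERS-P1, which stood at 497 and 704 CPM in PB, 573 and 758 in clone 1, and 548 and 682 in clone 2. HUERS-P1 was higher with dox in each line (log2 0.50 ± 0.11 in PB, edgeR adjusted p = 0.32, and 0.36 ± 0.08 in EXOSC3r cells, adjusted p = 0.42) while LTR8 itself had 0.20 and 0.06; the difference between the 2 sequences was not tested. HUERS-P3B, an internal sequence of LTR9, had a log2 change of 0.33 ± 0.09 in PB cells (adjusted p = 0.64) and 0.13 ± 0.06 in EXOSC3r cells (adjusted p = 1.00).

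In the 2 clones the same question was asked with EXOSC3r present. None of the 136 names passed in the edgeR test, where 0.143% of all sequences did, and 4 names (2.94%) had an unadjusted p under 0.05, against 3.15% of all. DESeq2 called 0 as well, with 1 name at an unadjusted p under 0.05. All 4 of the names with such a p in edgeR were higher with dox, as were 1.86% of all sequences. The median log2 change was 0.02, that of all sequences 0.0052, and 76 names were above 0, against 52.1% of all sequences. LTR2752, an unplaced name, stood at 11.9 CPM without and 20.2 CPM with dox in clone 1, and at 12 and 21.9 CPM in clone 2 (log2 0.82 ± 0.21, adjusted p = 0.59). In PB cells it was at 17.8 and 20.9 CPM, so the clones with dox reached the PB level and the clones without dox lay below it.

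LTR21A, an LTR of the HERV-F group, was at 24.5 and 39.1 CPM in clone 1 and at 27 and 36.1 CPM in clone 2, without and with dox (log2 0.54 ± 0.16, edgeR adjusted p = 0.90). LTR1C was at 12.6 and 20.4 CPM in clone 1 and at 14.8 and 22.9 CPM in clone 2 (0.66 ± 0.21, adjusted p = 1.00). LTR47A2, of class III, was at 44.6 and 52.9 CPM in clone 1 and at 37.8 and 53.6 CPM in clone 2 (0.37 ± 0.15, adjusted p = 1.00). For these 3 names both libraries with dox exceeded both without. The names were chosen by their small p in this same comparison, which favours such an order, and its share among all sequences was not counted. In PB cells the dox library was higher as well, at 42.6 against 33.95 CPM for LTR21A, 19.1 against 16.6 for LTR1C and 44.8 against 42.9 for LTR47A2.

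**Figure D3:**
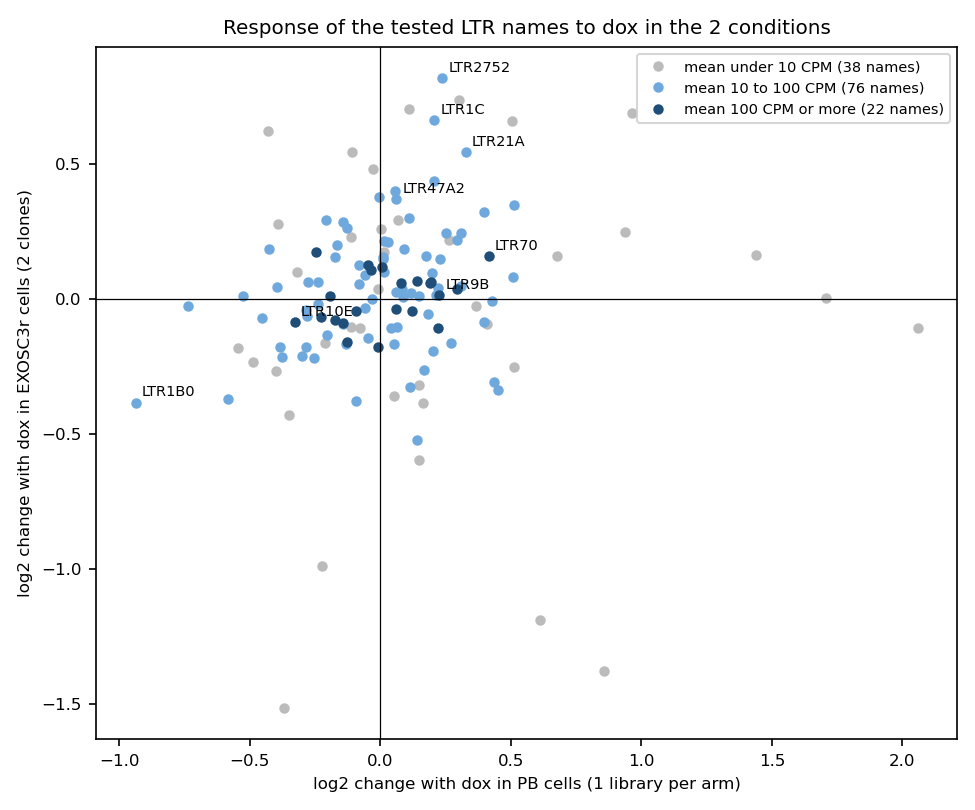
Log2 change with dox of the 136 tested names in PB cells (horizontal) and in EXOSC3r cells (vertical), with names at an unadjusted p under 0.05 in either labelled. The names at or above 100 CPM lie near 0 on both axes, and changes over 1 belong to names under 10 CPM.

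Across the 3 lines, each with its own library without dox, 31 names (22.8%) were higher with dox in every line, against 16.6% of all tested sequences, and 22 (16.2%) were lower in every line, against 15.9%. These counts hold on the TMM scale. The first group includes LTR70, LTR8, LTR6A, LTR6B, LTR2, LTR2B, LTR21A, LTR1C, LTR76 and LTR2752. In the deposited TPM clone 1 was lower with dox for LTR8 (345 without and 272 with dox), LTR2B (244 and 197), LTR6B (154 and 127) and LTR70 (61.2 and 50.4). The other names listed here were not checked on that scale. LTR6A, an LTR of HERVS71, was at 26.3 and 37.6 CPM in PB, 31.5 and 44.99 in clone 1, and 30.8 and 34.3 in clone 2. LTR76 was at 65.8 and 80.5 CPM in PB, 70.1 and 82.3 in clone 1, and 64.3 and 74.0 in clone 2. The second group includes LTR1B0, LTR48, LTR46, LTR27C and LTR35A. LTR48 was at 68.1 and 52.2 CPM in PB, 85.5 and 74.6 in clone 1, and 73.3 and 65.5 in clone 2. None of these names passed in either dox comparison.

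The responses to dox in PB and in EXOSC3r cells were then compared directly. In the edgeR interaction test 0 of 136 names passed (0% of all sequences), and 0 names had an unadjusted p under 0.05, against 1.29% of all. DESeq2 called 0, with 0 names under that unadjusted p. The median difference was -0.03 for the names and -0.0086 for all sequences, with 65 names above 0, against 48.5% of all. The smallest p belonged to LTR40B, of class III, whose PB response was lower by 0.61 ± 0.25 on the log2 scale (adjusted p = 1.00). It stood at 43.9 and 32.7 CPM in PB, 47.1 and 50.6 in clone 1, and 41.8 and 50.4 in clone 2, without and with dox. LTR28B showed the opposite order, with 33.8 and 45.7 CPM in PB, 31.2 and 25.8 in clone 1, and 39.8 and 31.4 in clone 2 (difference 0.75 ± 0.34, adjusted p = 1.00). LTR8A had 125 and 145 CPM in PB, 142 and 133 in clone 1, and 142 and 130 in clone 2 (difference 0.33 ± 0.15, adjusted p = 1.00). In all 3 cases, chosen by their small p in this same test, the PB line and both clones moved in opposite directions.

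Between EXOSC3r and PB cells under dox, none of the 136 names passed in the edgeR test, where 1% of all sequences did, and DESeq2 called 0 with 2 names at an unadjusted p under 0.05. With edgeR 13 names (9.56%) had an unadjusted p under 0.05, against 7.58% of all, 9 of them higher in EXOSC3r cells (4.43% of all) and 4 lower (3.15% of all). The median log2 difference was 0.0043, against 0.0058 for all sequences, and 70 names were above 0, against 51.9% of all. Without dox 0 names passed, as did 0% of all, with 3 names (2.21%) at an unadjusted p under 0.05, against 2.29% of all. DESeq2 called 0 there, with 1 name under that unadjusted p, and 77 names were above 0, against 51.4% of all. The 2 dox libraries of the clones and the PB dox library also enter the dox comparisons above, so the estimates are not independent of them.

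LTR77, a class I name, had the largest difference of the names with at least 10 CPM. It was at 59.7 CPM in PB and 62.5 CPM in PB with dox, 38.9 and 36.8 CPM in clone 1, and 25.5 and 23.1 CPM in clone 2. All 4 EXOSC3r libraries lay below both PB libraries, the libraries of 1 line lay within 3 CPM of each other, and the clones differed from each other as well. Under dox the log2 difference was -1.06 ± 0.33 (edgeR adjusted p = 0.61) with 29.97 ± 9.67 CPM (SD, n = 2 clones) in EXOSC3r cells. Without dox it was -0.89 ± 0.33 (adjusted p = 0.97) with 32.2 ± 9.47 CPM. With the line as a block the difference under dox was -1.10 ± 0.16 (adjusted p = 0.046), but this fit takes the spread between the clones out of the error of a comparison between lines.

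LTR2C was at 406 and 395 CPM in PB cells, 528 and 587 CPM in clone 1, and 446 and 461 CPM in clone 2. Under dox the EXOSC3r mean was 524 ± 88.8 CPM (SD, n = 2), a log2 difference of 0.41 ± 0.17 that was below 0 on 3 other scales (edgeR adjusted p = 0.61), and with the line as a block 0.40 ± 0.05 (adjusted p = 0.046). LTR17 had a log2 difference of 0.38 ± 0.16 under dox (adjusted p = 0.61) and 0.21 ± 0.16 without (adjusted p = 0.97), with the sign turned on other scales. LTR15 was at 95.6 and 80.5 CPM in PB, 111 and 145 in clone 1, and 104 and 97.9 in clone 2 (0.59 ± 0.23 under dox, adjusted p = 0.61, with the sign turned on ACTB and GAPDH scaling). For these 3 names all EXOSC3r libraries lay above both PB libraries on the TMM scale, and clone 1 above clone 2, but not on the plain total. Without the clone 2 library with dox, LTR15 had a difference of 0.85 ± 0.17 (adjusted p = 0.035). That fit sets 1 library against 1 library, takes its error from the clones without dox alone, and assumes that both libraries vary as these do. Such a non-overlap was found for 8 names above PB (5.88%, against 11.6% of all sequences) and 10 below (7.35%, against 10% of all).

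The sign of the EXOSC3r minus PB difference of LTR17 and LTR2C under dox changed with the scaling, and that of LTR15 on ACTB and GAPDH scaling but not on the plain total. In CPM of the plain total, without TMM factors, LTR17 was at 1402 and 1443 in PB cells, 1323 and 1293 in clone 1, and 1348 and 1499 in clone 2. On that scale clone 1 was the lowest line and not the highest. LTR2C was at 463 and 480 in PB cells, 461 and 436 in clone 1, and 453 and 506 in clone 2. The TMM factors by which the scales differ ran from 0.744 (clone 1 with dox) to 1.21 (PB with dox), in the reverse order of the Alu share. Total-count scaling moved the median of all sequences by -0.40 on the log2 scale for EXOSC3r minus PB under dox, and scaling to ACTB and GAPDH by -0.64. On these scales LTR17 differed by -0.05 and -0.29, LTR2C by -0.03 and -0.27 and LTR15 by 0.14 and -0.12 under dox. Relative to the shift of all sequences, the differences of the 3 names were above 0 on both scales. A scaling moves all log2 differences by nearly the same amount, so this sign was nearly fixed in advance and is no separate evidence. The LTR77 difference was lower in EXOSC3r cells on each scale: in CPM of the plain total it was at 68.1 and 75.8 in PB, 33.98 and 27.4 in clone 1, and 25.9 and 25.4 in clone 2. The part of the Alu share in these results was not tested.

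**Figure D4:**
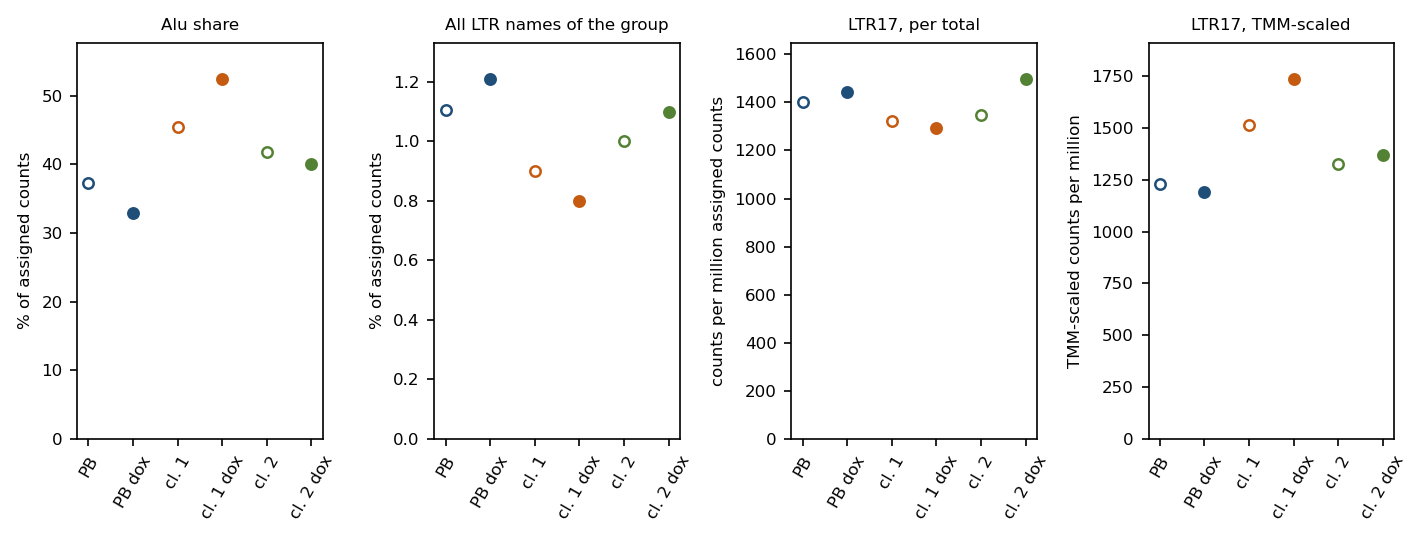
By library: the Alu share, the share of the LTR names and LTR17 on 2 scales, all axes from 0; open points are without and filled points with dox. Clone 1 has the highest Alu share (45.4% and 52.5%), the lowest share of LTR names, and LTR17 levels that are lowest per total count and highest after TMM scaling.

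The internal sequences of the same proviruses were set beside these names, without a test of the difference between LTR and interior. HERV17 was at 1919 and 1783 CPM in PB cells, 1617 and 1576 in clone 1, and 1938 and 1880 in clone 2 (log2 -0.05 ± 0.15 for EXOSC3r minus PB under dox, edgeR adjusted p = 0.97). The ratio of LTR17 to HERV17 per kilobase, which no scaling between libraries affects, was 8.74 and 9.06 in PB cells, 12.8 and 15.1 in clone 1, and 9.30 and 9.92 in clone 2. The ratio was thus higher in all 4 EXOSC3r libraries than in both PB libraries, and highest in clone 1. This was not particular to LTR17 among the 21 pairs. LTR10 over HERVIP10F, LTR10 over HERVIP10FH and LTR23 over HERV23 also lay higher in all 4 than in both PB libraries. The LTR10 pairs share the same LTR sum, and the gap for HERVIP10F was small (78.9 in PB with dox, 79.6 in clone 1 with dox). HERV23 was low, between 4.71 and 11.1 CPM. The ratio of LTR2 to HERVE overlapped, with 30.8 and 33.8 in PB cells, 36.8 and 42.3 in clone 1, and 30.9 and 34.1 in clone 2. The ratio of LTR15 to HERV15I was also highest in clone 1 but overlapped between clone 2 and PB cells, with 22.8 and 18.9 in PB cells, 30.7 and 40.4 in clone 1, and 23.2 and 21.4 in clone 2. HERVE had a log2 difference of 0.07 ± 0.09 under dox (adjusted p = 0.94), and HERV15I one of -0.05 ± 0.19 (adjusted p = 0.98).

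In 6 other names at an unadjusted p under 0.05 under dox, none of them passing (edgeR adjusted p = 0.61 for each), the PB library with dox stood apart from both clones with dox. LTR40B was at 32.7 CPM there against 50.6 and 50.4 CPM in the clones (log2 0.63 ± 0.18, with the sign turned under another scaling), LTR73 at 20.04 against 28.4 and 34.6 (0.65 ± 0.23) and LTR41 at 6.32 against 12.5 and 11.4 (0.92 ± 0.35). LTR28B was at 45.7 CPM against 25.8 and 31.4 (-0.67 ± 0.23), LTR9 at 101 against 78.2 and 74.0 (-0.41 ± 0.15) and LTR70 at 403 against 336 and 361 (-0.21 ± 0.08). LTR1B0 (0.69 ± 0.26), LTR10E (0.30 ± 0.12) and LTR10B1 (0.35 ± 0.14) also had such a p and were higher in EXOSC3r cells (edgeR adjusted p = 0.61 for each). The signs of LTR10E and LTR10B1 turned under another scaling. The 6 names with CPM values above were picked by their p in this same comparison under dox, which favours such a separation. Its share among all sequences was not counted, and in LTR1B0 and LTR10E PB with dox lay apart from both clones as well. A larger p in the other arm also does not show that the difference of these 6 names depends on dox. In the edgeR interaction test none of the 6 had an unadjusted p under 0.05. Of these 6 names, none had an unadjusted p under 0.05 without dox either. LTR47A and LTR10D, in turn, did so without dox: LTR47A was at 63.0 CPM in PB against 43.9 and 45.5 in the clones (-0.50 ± 0.16) and LTR10D at 192 against 254 and 237 (0.35 ± 0.14, with the sign turned under another scaling), both with an adjusted p of 0.97.

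**Figure D5:**
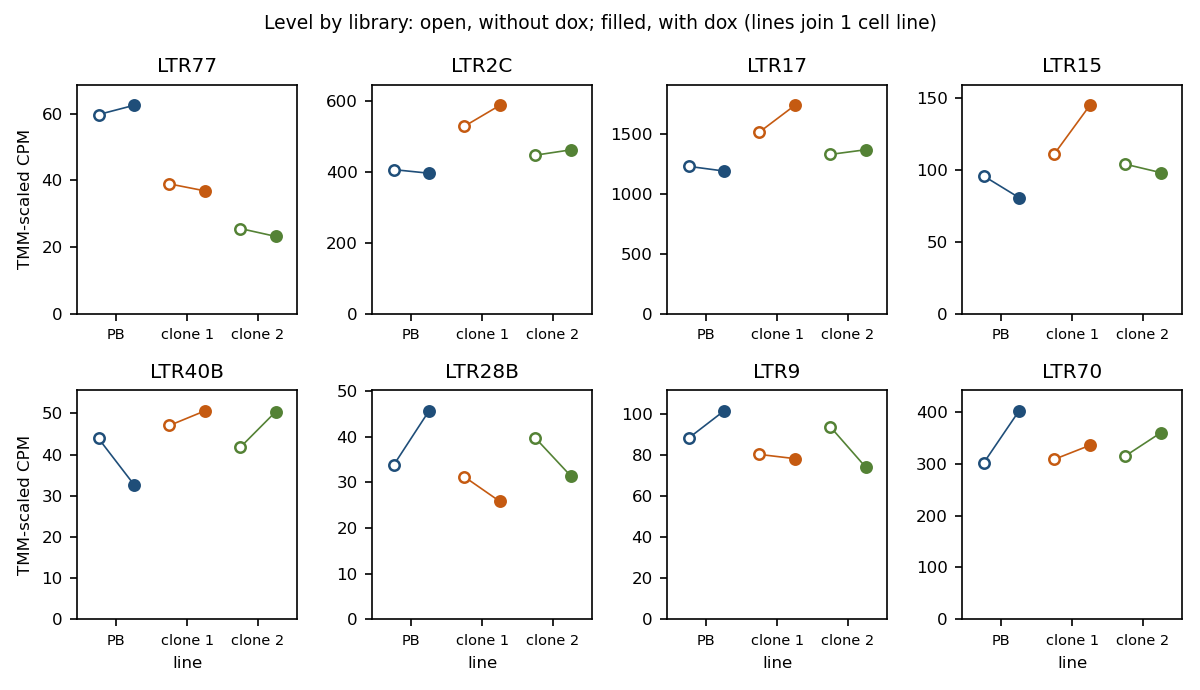
TMM-scaled CPM of 8 LTR names by library, each axis from 0; open points are without and filled points with dox, and lines join the pair of 1 cell line. LTR77 is lower in both clones than in PB cells, LTR2C, LTR17 and LTR15 are highest in clone 1 on this scale but not on the plain total, and LTR40B and LTR28B move oppositely in PB cells and the clones.

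The clones also differed from each other on the TMM scale. For 28 names (20.6%) both clone 1 libraries lay above both clone 2 libraries, against 24% of all sequences, and for 25 (18.4%) both lay below, against 22.3%. The first group includes LTR17, LTR2C, LTR15, LTR77, LTR48 and LTR8, and the second LTR10C, LTR10G and LTR24B. In CPM of the plain total LTR17, LTR2C and LTR15 did not keep this order, whereas LTR77 did. In the deposited TPM LTR8 was at 345 and 272 in clone 1 against 388 and 448 in clone 2, while LTR10C stayed lower in clone 1. LTR10G was at 54.01 and 50.4 CPM in clone 1 and 69.01 and 73.8 CPM in clone 2. These differences between clones were not tested.

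By class, the medians stayed near those of all sequences. The 108 tested class I names had median log2 changes with dox of 0.02 in PB and 0.01 in EXOSC3r cells, and the 22 class III names -0.01 and 0.06. Between EXOSC3r and PB cells under dox the medians were 0.0072 and 0.04. In the 15 LTR1 names the medians with dox were -0.05 in PB and -0.09 in EXOSC3r cells, and in the 9 LTR10 names 0.06 and 0.01. The 6 tested unplaced names had medians of 0.43 and -0.77 with dox, but LTR2752 and LTR11 apart they lay under 3 CPM, where 1 count is worth 0.181 to 0.256 CPM.

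The precision depended on the level. For the 22 names with a mean of at least 100 CPM the standard error of the log2 change with dox had a median of 0.14 in PB and 0.098 in EXOSC3r cells. For the 76 names between 10 and 100 CPM it was 0.26 and 0.19, and for the 38 tested names under 10 CPM 0.66 and 0.49. Among the low names LTR37B went from 0.585 to 2.53 CPM in PB cells, a log2 change of 2.06 ± 1.01 (edgeR adjusted p = 1.00), on about 3 counts without dox. Changes of such names were not distinguishable from 0 at this depth.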

How the data were processed

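RNA was measured by stranded total RNA sequencing after ribosomal RNA removal, per the labels' protocols, in 6 libraries. Salmon 0.13.0 is named in the submitters' processing notes, besides Trimmomatic 0.36 and bcl2fastq 2.17; index source, options and genome build are not given in the sources used here. Per the file headers, each deposited table holds estimated counts, which are not normalized, TPM, which the authors' software scaled to the same total over these 1047 sequences, and lengths. Strand use in counting is not given, so sense and antisense RNA of an LTR cannot be told apart, and near-identical names share reads.

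Estimated counts were rounded, kept at 10 or more in at least 1 library (699 sequences) and tested in R 4.3.3 with edgeR 4.0.16 (TMM scaling, a mean for each of 4 groups, quasi-likelihood F-test) and Benjamini-Hochberg adjustment over all 699. Only the clones leave residual degrees of freedom (2), so a PB library is assumed to vary as they do. The estimated biological variation was 12.2%. P-values thus rest on the spread between 2 clones, with the spread of each sequence drawn towards the trend over all 699. The standard error is the log2 change divided by the square root of F. Changes per line used log2(CPM + 0.5). The code was tested on simulated data. Pairs of libraries differed by a chi-square per degree of freedom of 18.9 to 774, so none was a copy.

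Libraries with and without dox are paired by their line; between the arms, deviations of clone 1 from the clone mean correlated at a Pearson r of 0.0023 across the 136 tested LTR names 0.15 across all 699 and 0.60 across the 253 sequences with at least 100 CPM, and sequences are not independent replicates. Alternatives were DESeq2 size factors, total counts, ACTB and GAPDH scaling, DESeq2 1.42.0, no filter, 10 counts in all libraries, limma 3.58.1 on log2(TPM + 1), the line as a block, family sums, and leaving out each clone library. The members, lists and alternatives were chosen with earlier results of these data known. Names could be given in the text if they passed a test, were among the 10 highest by CPM or TPM or the 8 smallest p per direction and comparison, or belonged to LTR2, LTR6, LTR8, LTR9, LTR10, LTR17, LTR45 or LTR70. Outside this rule, LTR11, LTR23, LTR24B, LTR25-int, LTR27C, LTR30, LTR35A, LTR39, LTR40A1, LTR43_I, LTR46, LTR75B, LTR76 and LTR80B were named after their values were seen. LTR4 was left out of the pairs with internal sequences because HERV4_I has an LTR of its own name. Consensus sequences were not used here.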

Additional observations from a re-analysis of the deposited data

How the results depend on the processing

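The count of LTR names that passed was 0 in each of the 5 comparisons, and it remained 0 under all 13 alternatives for dox in PB cells, dox in EXOSC3r cells, their difference and EXOSC3r minus PB without dox. For EXOSC3r minus PB under dox it was 2 with the line as a replicate block (LTR2C and LTR77) and 0 to 1 when 1 clone library was left out, the 1 being LTR15 without the clone 2 library with dox, where each arm holds 1 library; the causes were not tested. The block changed no other call of an LTR name. The median log2 change of the names lay between 0.01 and 0.12 for dox in PB cells, between -0.02 and 0.04 for dox in EXOSC3r cells and between -0.01 and 0.02 for EXOSC3r minus PB under dox. Under total counts, ACTB and GAPDH scaling and limma on TPM the typical sequence shifted in some comparisons, at most by -0.71 on the log2 scale (limma on TPM, under dox). Values under these settings are given relative to any shift beyond 0.1. On that scale the 32 values of single LTR names recomputed kept their sign under the alternatives run on them. For the settings that change only the scaling of the counts, this was nearly fixed in advance by the correction. Values of internal sequences and family sums were not recomputed. Without the correction for the shift, LTR17, LTR2C, LTR15, LTR10B1, LTR10D, LTR10E and LTR40B changed sign between EXOSC3r and PB cells under at least 1 scaling of the counts. The scalings checked for this were DESeq2 size factors, total counts, and ACTB and GAPDH. Limma on TPM, which had the largest shift, was not part of that check, so more names may change sign there. Family sums give no value for a single name. A PB library could not be left out, since its arm would be empty. Depth limited the names under 10 CPM.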
